A study of Mus musculus with 24 samples.

Results

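The 9 genes described here encode growth factors and receptors of 3 signaling systems: hepatocyte growth factor (Hgf) with its receptor Met, neuregulin 1 (Nrg1) with the receptor subunit Erbb2, and the platelet-derived growth factors Pdgfa, Pdgfb, Pdgfc and Pdgfd with the receptor Pdgfra. They were chosen by function, by a rule that uses no measured value but with earlier results of these data known, and make up 9 of the 56748 genes in the count table. The study asked how the lingual and buccal sides of the mouse molar tooth germ differ and measured gene expression by bulk RNA sequencing in 24 libraries, 3 in each of 8 groups. First mandibular molar tooth germs came from ICR mice, an outbred strain with no engineered allele, at embryonic day 13 (E13, cap stage) or E15 (bell stage). Cap-W and Bell-W are the undivided dental mesenchyme of each stage. Cap-L, Cap-B, Bell-L and Bell-B are the mesenchyme of the lingual (L, tongue side) and buccal (B, cheek side) parts, cut apart with a fine needle. Cap-L+2D and Cap-B+2D are the cap stage parts after 2 days of culture in vitro. Mesenchyme was separated from epithelium with the protease dispase II in all groups, and the tooth germs of embryos from 3 pregnant mice were used. The paper's methods describe sequencing in triplicate and also 2 biological replicates, so how many libraries of a group are independent is uncertain. No source states which libraries came from separate animals, so the p-values below measure the spread between these libraries, which may be technical.

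All 3 systems work through receptor tyrosine kinases, cell surface proteins that phosphorylate themselves and their partners when a ligand brings them together. HGF is typically secreted by mesenchyme as an inactive precursor, is cleaved by serine proteases and binds MET, which drives growth and migration of epithelial cells and of migrating muscle precursors. Neuregulin 1 binds ERBB3 or ERBB4, and ERBB2, which has no known ligand, is their preferred partner. PDGF-A, PDGF-B and PDGF-C act on PDGFRA, and PDGF-B and PDGF-D on PDGFRB. PDGF-C and PDGF-D are secreted in latent form and must be cleaved. In the tooth germ PDGFRA is known as a receptor of the mesenchyme, and MET and PDGF-A are known mainly from the epithelium.

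Levels are given as normalized CPM, counts scaled to 1000000 per library after TMM normalization over the 24 libraries. Log2 fold changes come from a separate fit of each comparison, so they can differ slightly from the ratio of the levels. A gene is called changed, and said to have risen or fallen, at an adjusted p under 0.05 in edgeR's quasi-likelihood test with an absolute log2 fold change over 0.5. For a single gene, the smallest two-sided p of an exact permutation test on 3 and 3 libraries is 0.1. In bulk RNA, fewer cells of a type and less RNA per cell cannot be told apart. Totals per library lay between 20581720 and 39266497 counts, so a floor of 3 counts stood for 0.0764 to 0.146 CPM, and all 9 genes lay above it in every library. The 8 dental mesenchyme markers, Msx1 and Pax9 among them, summed to between 1954 and 3896 CPM in every group. Epithelial transcripts remained after the separation: all 8 epithelium markers were above the floor in every group and summed to between 301 and 721 CPM outside Cap-B+2D and replicate 3 of Bell-W. The undivided libraries varied more than the divided ones. In replicate 1 of Cap-W, 5.39% of the counts fell on the ribosomal RNA gene Rn18s-rs5, and replicate 3 of Bell-W had an epithelium marker sum of 1811 CPM, against 515 and 439 CPM in replicates 1 and 2.

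The positions are those of GRCm39, from the first to the last exon base in the count table. Hgf lies at chr5:16758493-16825150 on the plus strand, Met at chr6:17463799-17573979 on the plus strand, Nrg1 at chr8:32304579-33374825 on the minus strand and Erbb2 at chr11:98303296-98328542 on the plus strand. Pdgfa lies at chr5:138961769-138983125 on the minus strand, Pdgfb at chr15:79880075-79899178 on the minus strand, Pdgfc at chr3:80943723-81121347 on the plus strand, Pdgfd at chr9:6168584-6378850 on the plus strand and Pdgfra at chr5:75312953-75358876 on the plus strand. Counting ignored strand and left out read pairs that overlapped several genes. Of the exon bases of Pdgfa, 26.1% were shared with 6330403L08Rik on the opposite strand, and the shared part was at most 6.74% in the other genes. A second Nrg1 identifier, which lies inside the longer gene, had 0 counts in all libraries and was set aside.

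Counting per kilobase of gene length, the receptor genes Pdgfra and Erbb2 were the most abundant of the 9. Pdgfra averaged 46.6 CPM per kb over the 24 libraries and Erbb2 22.4 CPM per kb. Met was far lower, at 2.53 CPM per kb. Among the ligands Pdgfa averaged 9.29 CPM per kb, Pdgfc 6.32, Pdgfd 3.71, Pdgfb 3.38, Hgf 1.38 and Nrg1 0.565 CPM per kb. The receptors that complete the 3 systems were not chosen with the 9 but were measured beside them: Pdgfrb averaged 57.2 CPM per kb, Egfr 7.78, Erbb3 4.87 and Erbb4 0.168 CPM per kb. Erbb4 thus lay lowest of the ErbB family in these samples, and Erbb2 highest.

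**Figure D1:**
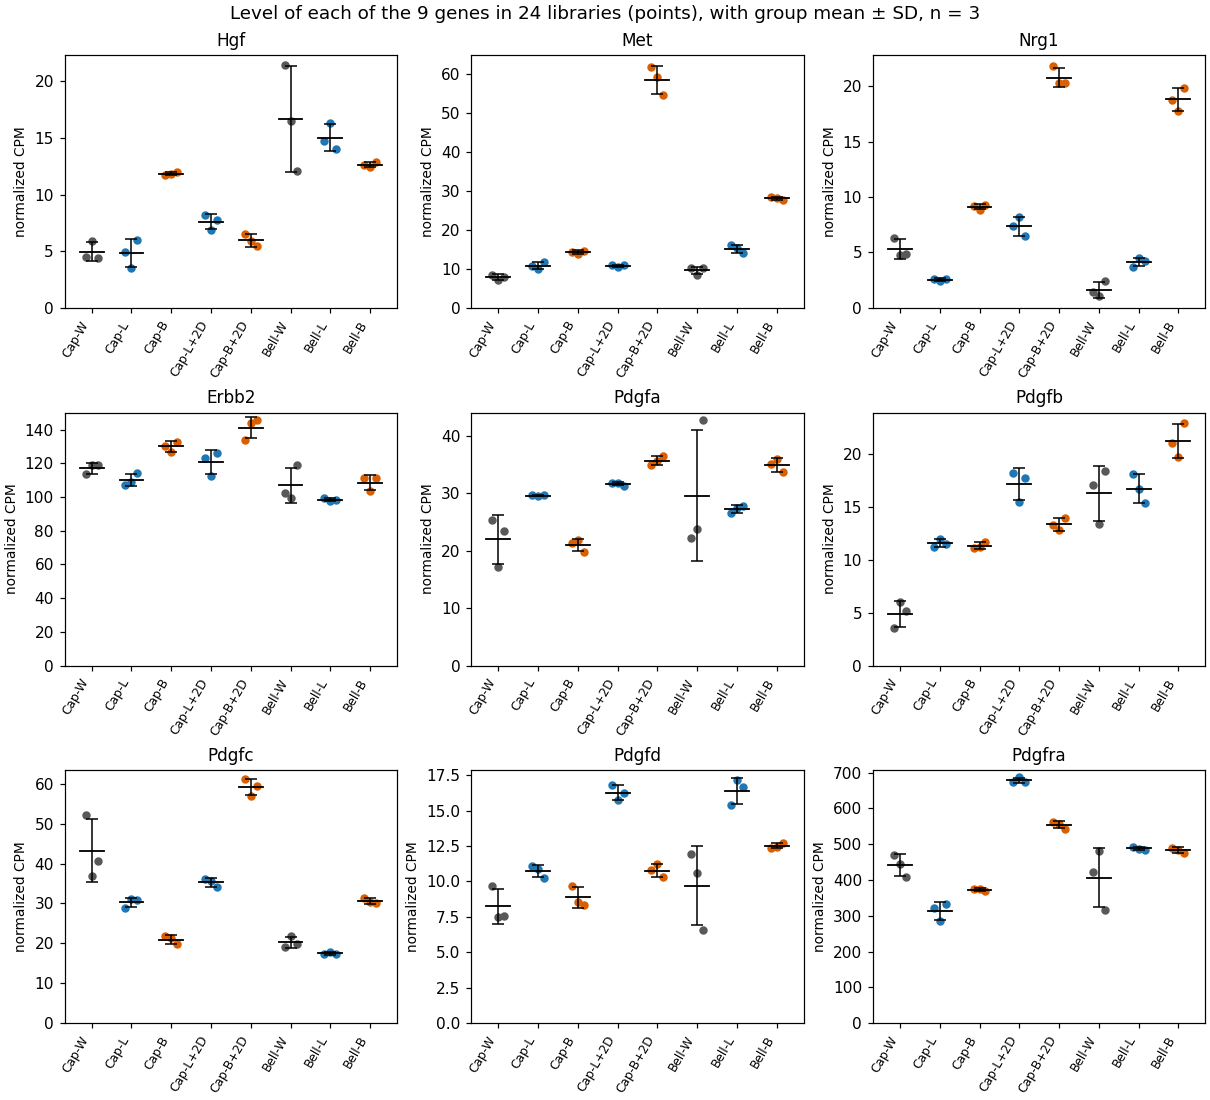
Normalized CPM (y axis, linear from 0) of each of the 9 genes in the 8 groups (x axis), with each library as a point and the group mean ± SD as bars (n = 3; grey, undivided; blue, lingual; orange, buccal). Met and Pdgfc reach their highest means in Cap-B+2D, at 58.6 and 59.2 CPM, while Erbb2 stays between 98.5 and 141 CPM in all groups.

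Hgf, the ligand of Met, was a buccal gene at the cap stage and not at the bell stage. In Cap-L it measured 4.90, 3.56 and 6.01 CPM in replicates 1 to 3, and in Cap-B 11.7, 11.9 and 12.0 CPM. All 3 buccal libraries lay above all 3 lingual ones, by 1.34 ± 0.13 on the log2 scale (SE, edgeR adjusted p = 1.05e-07). In Bell-L Hgf measured 14.7, 16.3 and 14.0 CPM, and in Bell-B 12.6, 12.4 and 12.9 CPM. Here the lingual libraries lay above the buccal ones, but by a log2 fold change of only -0.24 ± 0.07, under the limit for a call (edgeR adjusted p = 0.00464). Between the stages Hgf rose 3.18-fold in the lingual part, 1.67 ± 0.12 on the log2 scale (edgeR adjusted p = 1.22e-11). In the buccal part the value was 0.08 ± 0.07 (edgeR adjusted p = 0.364). The difference between the sides therefore changed by -1.60 ± 0.14 on the log2 scale from cap to bell (interaction in edgeR, adjusted p = 4.12e-10).

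Culture moved Hgf in opposite directions on the 2 sides. Cap-L+2D measured 8.22, 6.89 and 7.77 CPM, above each Cap-L library, and Cap-B+2D 6.57, 5.89 and 5.45 CPM, below each Cap-B library. Hgf rose with a log2 fold change of 0.69 ± 0.13 in the lingual part (edgeR adjusted p = 5.43e-05) and fell with one of -1.003 ± 0.08 in the buccal part (edgeR adjusted p = 1.73e-12). Without replicate 2 of Cap-L, its lowest library, the lingual value was 0.48, under the limit for a call. After culture the buccal level stood below the lingual one by a log2 fold change of -0.35 ± 0.10, not a call (edgeR adjusted p = 0.00389). In the undivided mesenchyme Hgf was 4.51, 5.93 and 4.43 CPM in Cap-W and 21.4, 16.5 and 12.1 CPM in Bell-W, a rise of 1.73 ± 0.25 on the log2 scale (edgeR adjusted p = 0.00392). Bell-W held the highest group mean of the 8, 16.7 ± 4.7 CPM (SD, n = 3), but its libraries overlapped those of Bell-L. At the low end Cap-L, Cap-W and Cap-B+2D overlapped one another.

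Met, the HGF receptor, followed another course and stood highest in the cultured buccal part. It measured 10.7, 9.97 and 11.9 CPM in Cap-L and 14.4, 13.7 and 14.7 CPM in Cap-B, which did not overlap, with a log2 fold change of 0.43 ± 0.08 that stayed under the limit (edgeR adjusted p = 0.000353). At the bell stage it was 16.1, 15.3 and 14.1 CPM in Bell-L and 28.4, 28.1 and 27.8 CPM in Bell-B. The bell stage difference of 0.89 ± 0.06 was a call (edgeR adjusted p = 1.76e-16), and it exceeded the cap stage difference by 0.46 ± 0.10 on the log2 scale (interaction in edgeR, adjusted p = 0.000545). After culture Met measured 11.1, 10.5 and 10.9 CPM in Cap-L+2D and 61.8, 59.4 and 54.6 CPM in Cap-B+2D. Every cultured buccal library thus stood above 54 CPM, and no other library of the study reached 29 CPM. The buccal over lingual log2 fold change after culture was 2.43 ± 0.06, or 5.39-fold (edgeR adjusted p = 2.36e-21).

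With culture Met in the lingual part differed by 0.01 ± 0.08 on the log2 scale (edgeR adjusted p = 0.93), a value whose sign turned under other settings, and raised it in the buccal part by 2.02 ± 0.06, or 4.05-fold (edgeR adjusted p = 2.37e-25). The difference between these 2 changes was 2.00 ± 0.10 (interaction in edgeR, adjusted p = 3.24e-16). From cap to bell Met rose in the buccal part by 0.97 ± 0.06 (edgeR adjusted p = 4.62e-15), while the lingual value of 0.50 ± 0.08 fell just short of the limit (edgeR adjusted p = 1e-05). In the undivided mesenchyme Met was 8.52, 7.15 and 8.06 CPM in Cap-W and 10.1, 8.54 and 10.3 CPM in Bell-W, a log2 fold change of 0.28 ± 0.17 that was not a call (edgeR adjusted p = 0.314). At each stage every undivided library lay below every library of the 2 parts.

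Nrg1, the ligand of the ErbB receptors, was a buccal gene in all 3 settings. It measured 2.58, 2.45 and 2.65 CPM in Cap-L against 9.17, 8.88 and 9.31 CPM in Cap-B, then 3.73, 4.49 and 4.26 CPM in Bell-L against 18.7, 17.8 and 19.9 CPM in Bell-B. After culture it measured 7.39, 8.18 and 6.50 CPM in Cap-L+2D against 21.8, 20.3 and 20.3 CPM in Cap-B+2D. The groups did not overlap in any of the 3 pairs. The buccal over lingual log2 fold change was 1.86 ± 0.10 at the cap stage (edgeR adjusted p = 5.68e-11), 2.18 ± 0.08 at the bell stage (edgeR adjusted p = 3.82e-24) and 1.502 ± 0.08 after culture (edgeR adjusted p = 1.66e-14). The change of the side difference from cap to bell, 0.31 ± 0.14, did not pass the test (interaction in edgeR, adjusted p = 0.095). With culture the side difference narrowed by -0.36 ± 0.14 (interaction in edgeR, adjusted p = 0.0404), a call that was lost in 13 of the alternative fits.

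Nrg1 also rose with stage and with culture on both sides. From cap to bell the log2 fold change was 0.71 ± 0.13 in the lingual part (edgeR adjusted p = 7.6e-05) and 1.04 ± 0.07 in the buccal part (edgeR adjusted p = 4.51e-14). With culture it was 1.53 ± 0.12 on the lingual side (edgeR adjusted p = 3.35e-11) and 1.17 ± 0.07 on the buccal side (edgeR adjusted p = 3.54e-16). The undivided mesenchyme went the other way, from 6.35, 4.74 and 4.88 CPM in Cap-W to 1.42, 1.05 and 2.43 CPM in Bell-W. This fall of -1.70 ± 0.35 was a call (edgeR adjusted p = 0.0151) that was lost without replicate 1 of Bell-W (-1.58, edgeR adjusted p = 0.0633) or without replicate 2 of Bell-W (-1.47, edgeR adjusted p = 0.0537). Every Bell-W library lay below every Bell-L and Bell-B library. Nrg1 had the widest range of group means of the 9 genes, 12.7-fold from Bell-W to Cap-B+2D, and none of its neighbouring groups overlapped.

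Erbb2, the shared receptor subunit, was called in none of the 8 comparisons. Its group means ran from 98.5 ± 0.7 CPM in Bell-L to 141 ± 6 CPM in Cap-B+2D (SD, n = 3), a range of 1.43-fold. Buccal libraries were above lingual ones by log2 fold changes of 0.26 ± 0.04 at the cap stage, 0.14 ± 0.03 at the bell stage and 0.22 ± 0.04 after culture, all under the limit for a call (edgeR adjusted p = 0.000102, 0.000885 and 0.000183).

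Its partner Erbb3, which binds neuregulin but signals poorly alone, did differ by side. It measured 11.3, 11.6 and 12.3 CPM in Cap-L against 30.8, 27.6 and 28 CPM in Cap-B, and 18.3, 18.2 and 18.5 CPM in Bell-L against 42.7, 42.8 and 40.5 CPM in Bell-B. After culture it measured 11.7, 12.1 and 12.1 CPM in Cap-L+2D against 89.6, 92.2 and 93.4 CPM in Cap-B+2D. The log2 fold changes between sides were 1.32 ± 0.07, 1.196 ± 0.05 and 2.93 ± 0.05 (edgeR adjusted p = 1.53e-11, 1.21e-22 and 1.71e-24). Culture raised Erbb3 in the buccal part by 1.65 ± 0.04 (edgeR adjusted p = 1.69e-25), against 0.04 ± 0.07 in the lingual part (edgeR adjusted p = 0.672), and the interaction was 1.61 ± 0.08 (edgeR adjusted p = 9.77e-16). Erbb4, the other neuregulin receptor, was lower in level, between 0.389 and 4.34 CPM over all libraries, and was also buccal, with log2 fold changes of 2.87 ± 0.20, 1.64 ± 0.21 and 1.78 ± 0.16 at the cap stage, the bell stage and after culture (edgeR adjusted p = 1.11e-09, 2.25e-08 and 4.32e-10). Egfr, which binds EGF-type ligands in place of neuregulins, was lower on the buccal side after culture, by -0.62 ± 0.04 on the log2 scale (edgeR adjusted p = 5.48e-12).

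The sum of skeletal muscle markers was higher on the buccal side and rose in both parts with stage and with culture. It was highest in Cap-B+2D, as were the mean levels of Met, Nrg1 and Erbb3, and also those of Erbb2, Pdgfa and Pdgfc. Those of Hgf, Pdgfb, Pdgfd and Pdgfra were highest in other groups. The 9 muscle markers, among them the myogenic factors Myod1, Myog and Pax7, summed to between 21.6 and 23.6 CPM in Cap-L, 189 and 208 CPM in Cap-B, 111 and 117 CPM in Bell-L and 866 and 886 CPM in Bell-B. After culture the sums were between 312 and 331 CPM in Cap-L+2D and between 3564 and 3786 CPM in Cap-B+2D. Of the 9 markers, 8 were higher on the buccal side in each of the 3 pairs. The other, Pax3, was lower in Bell-B than in Bell-L. Pax3 fell with stage in both parts and in the undivided mesenchyme, and rose with culture on both sides. Myod1 rose from between 12.7 and 14.1 CPM in Cap-B to between 104 and 112 CPM in Cap-B+2D. In the undivided mesenchyme the muscle sum was only 17.9 to 21.5 CPM in Cap-W and 6.58 to 14.2 CPM in Bell-W, below both parts of its stage, with Myf5 at or under the floor in Cap-W and in Cap-L. The levels of Met and Erbb3 in Cap-L+2D were close to those in Cap-L, and the muscle sum differed by more than 10 times between these groups. The part of muscle tissue in the levels of these genes was not tested.

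Summed markers of nerve tissue were also higher on the buccal side, but the Schwann lineage sums without Erbb3 overlapped after culture. The neuron list summed to between 23.7 and 24.3 CPM in Cap-L and 33.7 and 35.4 CPM in Cap-B, to between 19.2 and 21.4 CPM in Bell-L and 38.9 and 40.8 CPM in Bell-B, and to between 20.9 and 22.3 CPM in Cap-L+2D and 72.9 and 76.7 CPM in Cap-B+2D. Of its 6 markers 2 were higher and 1 lower in Cap-B than in Cap-L (10.4% and 7.10% of all genes). In Bell-B 3 were higher (6.00% of all genes) and in Cap-B+2D 5 (12.5%), each against its lingual part. The list median at the cap stage was -0.01 on the log2 scale, as for all genes. The Schwann lineage list, whose glial cells use neuregulin and contain Erbb3, was summed over its other 6 markers and came to between 15.1 and 17.2 CPM in Cap-L, 35.3 and 38.7 CPM in Cap-B, 18.2 and 21.0 CPM in Bell-L, 34.2 and 34.8 CPM in Bell-B, 5.34 and 6.25 CPM in Cap-L+2D and 5.89 and 7.2 CPM in Cap-B+2D. With Erbb3 counted in, 7 of the 7 were higher in Cap-B than in Cap-L (10.4% of all genes) and 5 in Bell-B than in Bell-L (6.00%). After culture 4 of the 7 were tested between the sides, with 3 higher in the buccal part, Erbb3 among them, and 1 lower, Fabp7 (12.5% of all genes each way). With culture 5 of the 7 fell on the lingual side and 6 on the buccal side, where Erbb3 alone rose, with Sox10 down from between 12.2 and 12.9 CPM to between 0.174 and 0.348 CPM. The epithelium sum also fell in the cultured buccal part, to between 78.2 and 79.1 CPM from between 301 and 318 CPM in Cap-B, and Met rose there. The part of these cells in the levels of Met, Nrg1 and Erbb3 was not tested.

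**Figure D2:**
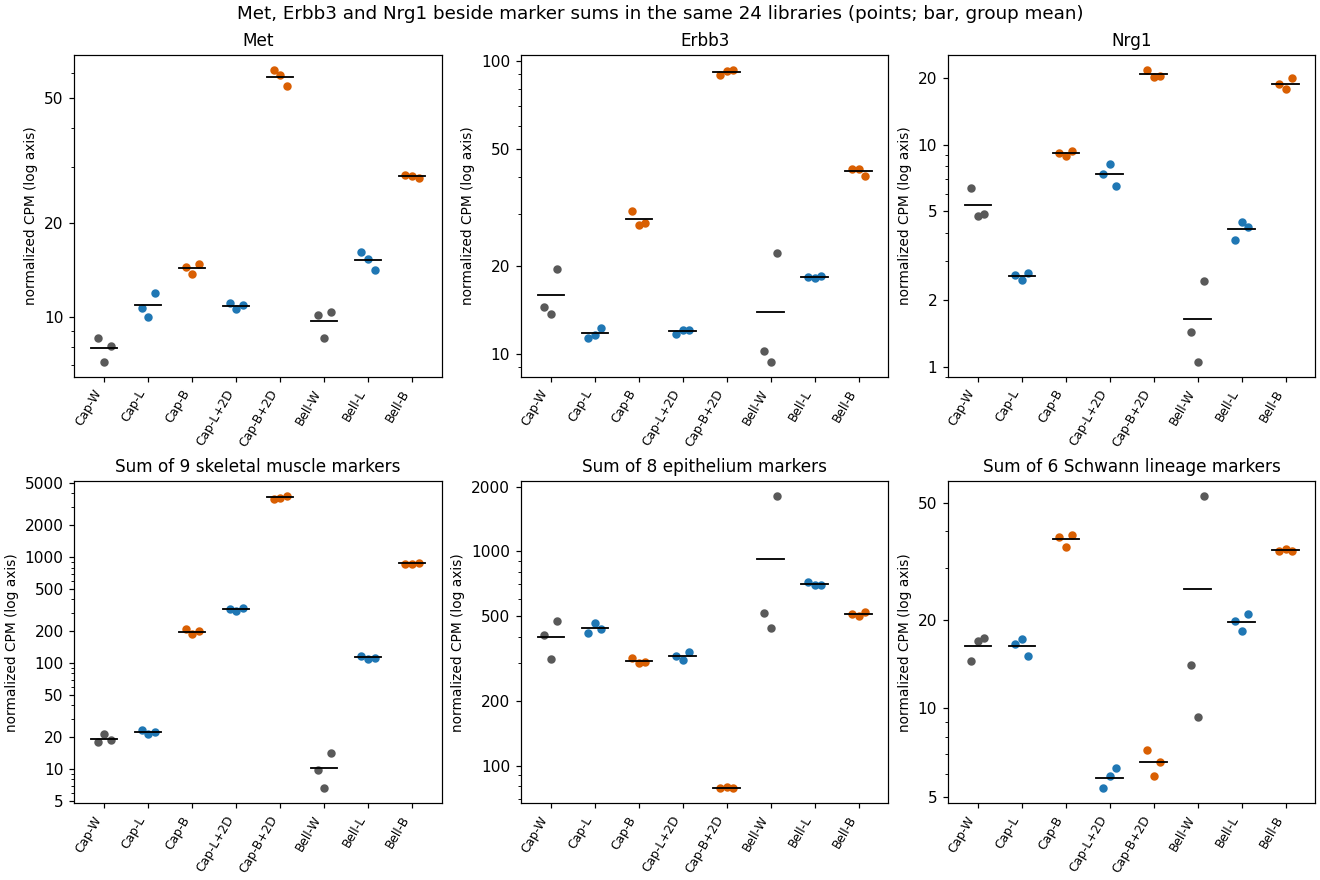
Met, Erbb3 and Nrg1 (upper row) and summed markers of skeletal muscle, epithelium and the Schwann lineage without Erbb3 (lower row), as normalized CPM on a log axis, with points for libraries and bars for the means of 3. In Cap-B+2D the muscle sum stands at 3564 to 3786 CPM, while the epithelium sum is at its lowest, 78.2 to 79.1 CPM, and the Schwann sum at 5.89 to 7.2 CPM.

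Among the PDGF ligands, Pdgfc changed sides. At the cap stage it measured 28.9, 31.1 and 30.9 CPM in Cap-L and 21.9, 21.3 and 19.8 CPM in Cap-B, so the lingual libraries were higher. At the bell stage it measured 17.3, 18.0 and 17.2 CPM in Bell-L and 31.5, 30.3 and 30.0 CPM in Bell-B, and after culture 36.2, 35.8 and 34.0 CPM in Cap-L+2D and 61.1, 57.0 and 59.3 CPM in Cap-B+2D, with the buccal libraries higher in both. The cap stage log2 fold change of -0.51 ± 0.06 passed the limit narrowly (edgeR adjusted p = 1.75e-06), and was -0.50, -0.50 and -0.47 without replicate 2 of Cap-L, replicate 3 of Cap-L and replicate 3 of Cap-B, where it was no call. The bell stage value was 0.81 ± 0.05 (edgeR adjusted p = 4.63e-16) and the value after culture 0.74 ± 0.05 (edgeR adjusted p = 7.25e-13). The side difference shifted by 1.31 ± 0.08 with stage and by 1.25 ± 0.08 with culture (interactions in edgeR, adjusted p = 4.02e-14 and 4.7e-14).

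With stage Pdgfc fell in the lingual part by -0.78 ± 0.06 and rose in the buccal part by 0.54 ± 0.05 (edgeR adjusted p = 3.01e-11 and 4.08e-10). The buccal rise was 0.49 without replicate 3 of Cap-B, under the limit for a call. With culture Pdgfc rose 2.79-fold in the buccal part, by 1.48 ± 0.05 (edgeR adjusted p = 7.34e-23), and the lingual value was 0.23 ± 0.05, not a call (edgeR adjusted p = 0.000698). In the undivided mesenchyme Pdgfc was 52.1, 37.0 and 40.7 CPM in Cap-W and 19.2, 21.8 and 19.9 CPM in Bell-W, a fall of -1.10 ± 0.14 (edgeR adjusted p = 0.0023).

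Pdgfa, the main ligand of Pdgfra, showed a smaller turn of the same kind. It measured 29.6, 29.5 and 29.7 CPM in Cap-L against 21.4, 21.9 and 19.9 CPM in Cap-B, and 26.5, 27.5 and 27.8 CPM in Bell-L against 35.2, 36.0 and 33.7 CPM in Bell-B. The lingual libraries lay above at the cap stage and the buccal ones at the bell stage, with log2 fold changes of -0.47 ± 0.06 and 0.36 ± 0.05, both under the limit for a call (edgeR adjusted p = 3.45e-06 and 1.25e-07). The shift between them was 0.82 ± 0.07 (interaction in edgeR, adjusted p = 4.46e-10). Pdgfa rose in the buccal part with stage, by 0.72 ± 0.05, and with culture, by 0.74 ± 0.05 (edgeR adjusted p = 2.91e-13 and 4.39e-14), to 34.9, 35.6 and 36.5 CPM in Cap-B+2D. The lingual part gave -0.11 ± 0.05 with stage and 0.10 ± 0.05 with culture, neither past the test (edgeR adjusted p = 0.0874 and 0.0841). In Bell-W replicate 3 stood at 42.8 CPM against 22.3 and 23.8 CPM in replicates 1 and 2. It was the library with the high epithelium sum, and whether its Pdgfa level came from there was not tested.

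Pdgfb, a ligand of both PDGF receptors that is known from endothelium, rose with stage everywhere. It measured 3.56, 6.00 and 5.10 CPM in Cap-W and 17.1, 13.4 and 18.4 CPM in Bell-W, a rise of 1.71 ± 0.24 or 3.27-fold (edgeR adjusted p = 0.00345). In the lingual part the rise was 0.54 ± 0.08, from 11.2, 12.0 and 11.5 CPM to 18.0, 16.7 and 15.3 CPM (edgeR adjusted p = 3.43e-06), and it was 0.47 without replicate 1 of Bell-L, under the limit. In the buccal part it was 0.90 ± 0.07, from 11.1, 11.2 and 11.7 CPM to 21.0, 19.7 and 22.9 CPM (edgeR adjusted p = 1.14e-12). The endothelium markers moved with the undivided libraries: their sum was between 207 and 216 CPM in Cap-W and between 407 and 514 CPM in Bell-W, and all 8 rose, whereas with stage 2 of the 8 rose on the lingual side and 1 on the buccal side. In the parts, more of the macrophage markers rose with stage. Between the sides at the bell stage, however, 5 of the 7 were lower in Bell-B and 0 were higher. Bell-B held the highest group mean of Pdgfb, 21.2 CPM. All 7 macrophage markers rose with stage in the undivided and the lingual mesenchyme and 6 in the buccal part. With culture all 7 rose on the lingual side and 5 on the buccal side. Their mean sum was 43.7 CPM in Cap-W and 199.5 CPM in Bell-W, 80.2 CPM in Cap-L, 301 CPM in Bell-L and 259.9 CPM in Cap-L+2D, and 89.4 CPM in Cap-B, 161.5 CPM in Bell-B and 173 CPM in Cap-B+2D. In Cap-B+2D the endothelium sum was down to between 181 and 185 CPM from between 446 and 457 CPM in Cap-B, while Pdgfb measured 13.2, 12.8 and 14.0 CPM, a log2 fold change with culture of 0.22 ± 0.07 that was not a call (edgeR adjusted p = 0.0107). The endothelium sum in Cap-L+2D, between 445 and 449 CPM, was also below that in Cap-L, between 502.5 and 516 CPM. The part of endothelium and macrophages in the levels of Pdgfb was not tested. On the lingual side Pdgfb rose with culture by 0.57 ± 0.08, to 18.2, 15.4 and 17.8 CPM (edgeR adjusted p = 5.52e-07), which was 0.42 with library totals in place of TMM, under the limit. Between the sides Pdgfb was never called, with log2 fold changes of -0.01 ± 0.07 at the cap stage, 0.35 ± 0.07 at the bell stage and -0.37 ± 0.07 after culture (edgeR adjusted p = 0.962, 2.72e-05 and 0.000115).

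Pdgfd, the latent ligand of PDGFRB, was the most lingual of the PDGF genes after culture. It measured 16.8, 15.7 and 16.3 CPM in Cap-L+2D against 10.8, 11.2 and 10.3 CPM in Cap-B+2D, which did not overlap and differed by -0.60 ± 0.07 on the log2 scale (edgeR adjusted p = 5.65e-08). The same direction stood in Cap-B over Cap-L, -0.25 ± 0.08, and in Bell-B over Bell-L, -0.39 ± 0.07, without a call (edgeR adjusted p = 0.022 and 7.55e-06). In the lingual part Pdgfd rose with stage by 0.62 ± 0.07 and with culture by 0.60 ± 0.07 (edgeR adjusted p = 8.49e-08 and 5.72e-08), the latter 0.45 and no call with library totals in place of TMM. The buccal stage value of 0.49 ± 0.08 was just under the limit (edgeR adjusted p = 2.96e-06).

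Pdgfra, the receptor, rose most in the cultured lingual part. It measured 322, 286 and 332 CPM in Cap-L, 374, 376 and 369.6 CPM in Cap-B, 673, 687 and 675 CPM in Cap-L+2D and 562, 557 and 543 CPM in Cap-B+2D. The rise with culture was 1.12 ± 0.05 on the lingual side and 0.55 ± 0.03 on the buccal side (edgeR adjusted p = 2.17e-16 and 4.48e-17), and the 2 differed by -0.58 ± 0.06 (interaction in edgeR, adjusted p = 6.89e-09). With library totals in place of TMM the buccal rise was 0.47, under the limit. With stage Pdgfra rose in the lingual part by 0.65 ± 0.05 (edgeR adjusted p = 2.91e-11), to 492, 488 and 484.5 CPM. The buccal stage value, 0.36 ± 0.03, was under the limit (edgeR adjusted p = 5.18e-12), and Bell-B reached 490.1, 484.5 and 475 CPM, so the 2 sides overlapped at the bell stage. Pdgfra was called between the sides in none of the 3 settings. Pdgfrb, the other PDGF receptor, fell in the lingual part with stage by -0.54 ± 0.04 (edgeR adjusted p = 1.35e-10), from 328, 330 and 347 CPM in Cap-L to 237, 227 and 226 CPM in Bell-L, and was called in no other of the 8 comparisons.

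**Figure D3:**
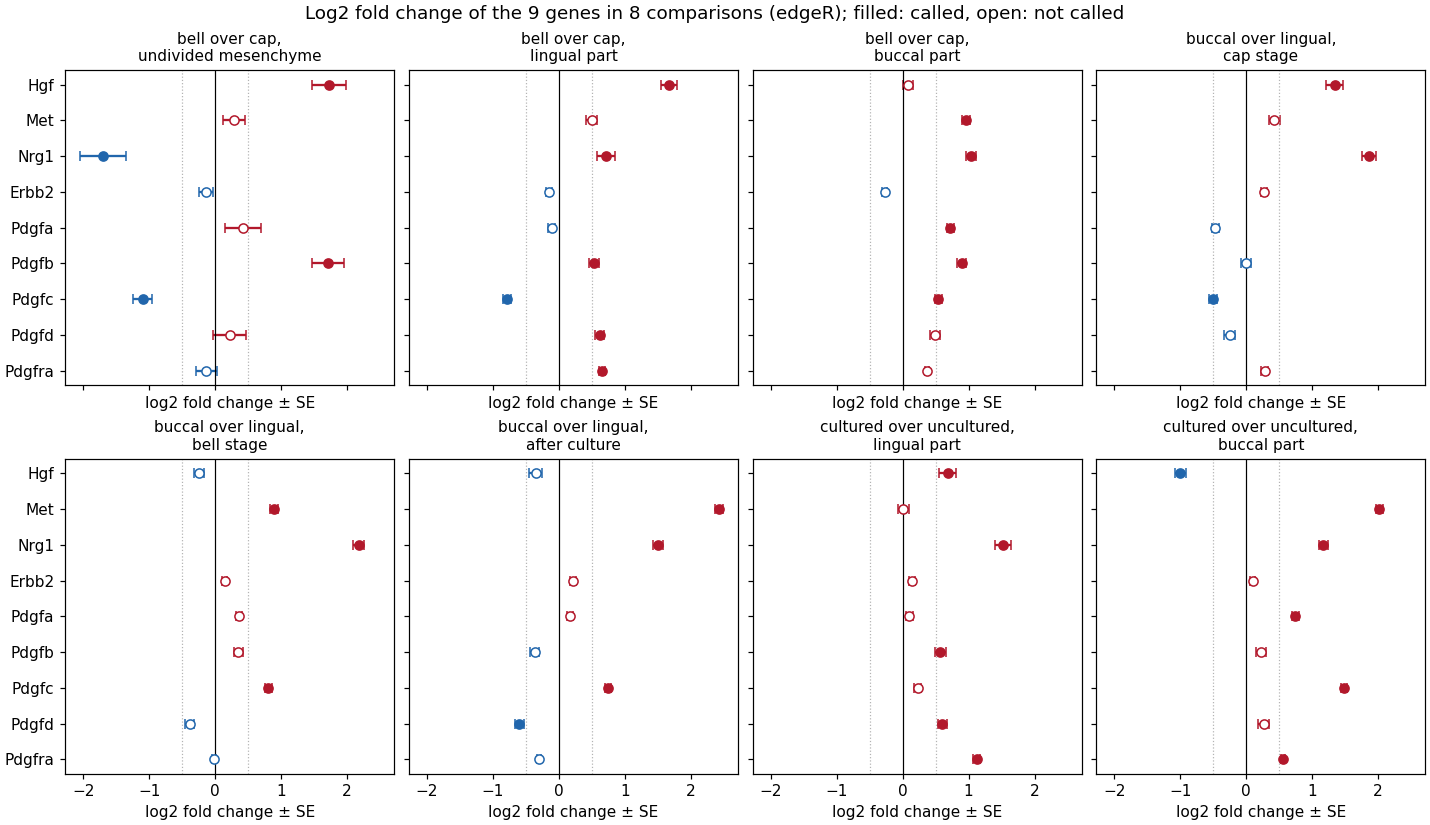
Log2 fold change ± SE (x axis) of the 9 genes (y axis) in 8 comparisons, from edgeR, where filled points passed both limits and dotted lines mark 0.5 on the log2 scale in either direction. Nrg1 is called in all 8 panels, 7 times higher and 1 time lower, and Erbb2 in none.

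Counted over the 9 genes, the comparisons differed in how many moved, and the share of all tested genes called the same way is given with each. From cap to bell in the undivided mesenchyme 2 rose, Hgf and Pdgfb, against 10.3% of all genes, and 2 fell, Nrg1 and Pdgfc, against 4.21%. Without both unusual undivided libraries 3 rose, Pdgfd being added at 0.58, against 14.0% of all genes, and 2 fell, against 6.91%. In the lingual part 5 rose with stage, against 14.2% of all genes, and 1 fell, against 5.78%. In the buccal part 5 rose with stage, against 12.0% of all genes, and 0 fell, against 6.73%. Calls went in opposite directions for Nrg1, which fell in the undivided mesenchyme and rose in both parts, and for Pdgfc. Pdgfc fell in the undivided and the lingual mesenchyme and rose in the buccal part. Hgf rose in the undivided and the lingual mesenchyme and was not called in the buccal part. With all libraries kept, Met and Pdgfa rose only in the buccal part, and Pdgfd and Pdgfra only in the lingual part.

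Between the sides at the cap stage 2 were higher in the buccal part, Hgf and Nrg1, against 10.4% of all genes, and 1 was lower, Pdgfc, against 7.10%. At the bell stage 3 were higher, Met, Nrg1 and Pdgfc, against 6.00%, and 0 were lower, against 6.88%. After culture 3 were higher, the same as at the bell stage, against 12.5%, and 1 was lower, Pdgfd, against 12.5%. With culture 5 rose in the lingual part, against 19.6% of all genes, and 0 fell, against 15.9%. In the buccal part 5 rose with culture, against 17.9%, and 1 fell, Hgf, against 16.6%. The stage and the culture comparisons of each side share their cap libraries, so they are not independent of each other.

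**Figure D4:**
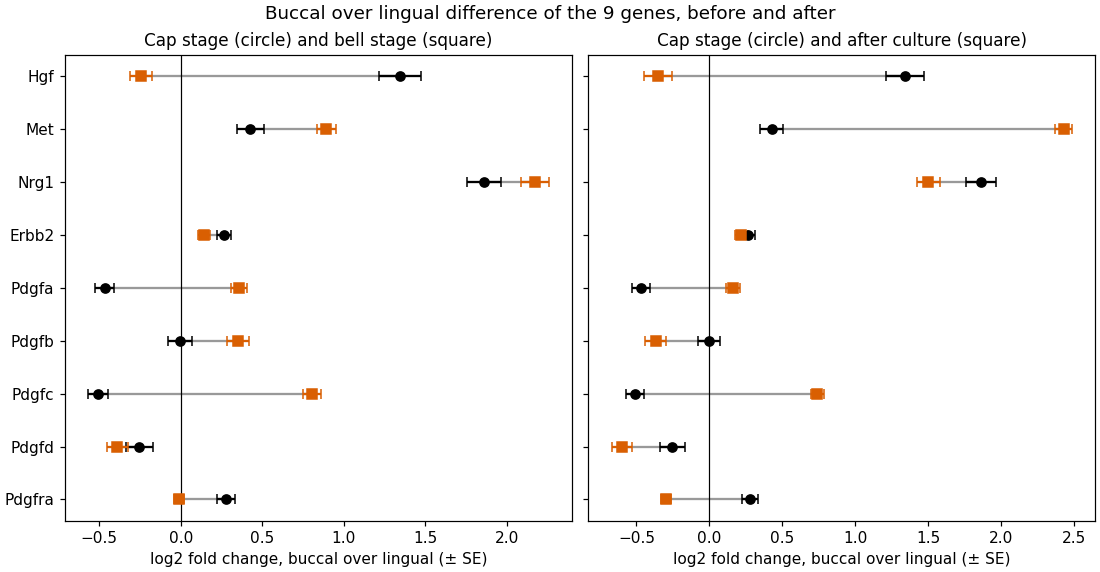
Buccal over lingual log2 fold change ± SE (x axis) of the 9 genes at the cap stage (black circles) and, joined by a line, at the bell stage (left panel, squares) or after culture (right panel, squares). Hgf moves from 1.34 at the cap stage to -0.24 at the bell stage and -0.35 after culture, and Pdgfc from -0.51 to 0.81 and 0.74.

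Tested directly, the side difference changed with stage in 6 of the 9 genes. It moved toward the buccal side in 4, Met, Pdgfa, Pdgfb and Pdgfc, against 14.5% of all genes, and toward the lingual side in 2, Hgf and Pdgfra, against 18.0%. Interactions were called at an adjusted p under 0.05 with no limit on the size. With culture it changed in 8 of the 9. It moved toward the buccal side in 3, Met, Pdgfa and Pdgfc, against 16.0% of all genes, and toward the lingual side in 5, Hgf, Nrg1, Pdgfb, Pdgfd and Pdgfra, against 19.5%. With all libraries in 1 fit, Pdgfb and Pdgfra lost their calls with stage, and Nrg1, Pdgfb and Pdgfd lost theirs with culture. Both interactions use the same Cap-L and Cap-B libraries.

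The listed partners of HGF and MET were mostly lower on the buccal side where called. Spint1, Spint2, Gab1 and St14 were those lower at the cap stage and after culture. Of the 9 listed partners, 8 were tested between the sides at the cap stage, where 1 was higher in the buccal part (10.4% of all genes) and 4 were lower (7.10% of all genes), with a list median of -0.42 on the log2 scale against -0.01 for all genes. The membrane protease inhibitor Spint2 was lower by -1.06 ± 0.07 and Spint1 by -0.82 ± 0.14 (edgeR adjusted p = 1.34e-09 and 8.27e-05), and Cd44, a co-receptor of MET, was higher by 0.56 ± 0.05 (edgeR adjusted p = 9.08e-09). At the bell stage 0 of 8 were higher and 3 lower (6.88% of all genes), and after culture 0 of 9 were higher and 4 lower (12.5% of all genes), led by the HGF-activating protease St14 at -2.39 ± 0.16 and Spint1 at -2.09 ± 0.17 (edgeR adjusted p = 1.39e-12 and 8.01e-11). Of the 8 epithelium markers, 7 were lower in Cap-B, 4 in Bell-B and 7 in Cap-B+2D than on the lingual side, and their part in these values was not tested. With culture 1 of 8 rose and 3 fell in the lingual part (19.6% and 15.9% of all genes), and 1 rose and 5 fell in the buccal part (17.9% and 16.6%). Cd44 was the one that rose on both sides, by 1.37 ± 0.04 in Cap-L+2D and 0.58 ± 0.04 in Cap-B+2D (edgeR adjusted p = 2.34e-19 and 5.92e-15). With stage 2 of 8 partners rose and 1 fell in the lingual part (14.2% and 5.78% of all genes) and 3 rose and 0 fell in the buccal part (12.0% and 6.73%), with St14 up by 0.95 ± 0.08 and 1.11 ± 0.09 (edgeR adjusted p = 4.98e-10 and 6.16e-12), and in the undivided mesenchyme 1 of 9 rose (10.3% of all genes), Cd44, by 1.39 ± 0.13 (edgeR adjusted p = 0.000845).

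Of the 8 listed PDGF partners, 7 rose with culture in the lingual part (19.6% of all genes) and 4 in the buccal part (17.9% of all genes), and 0 fell in either, with list medians of 1.09 and 0.52 against -0.03 and -0.02 for all genes. Pdgfrl, which encodes a PDGF receptor-like protein, rose by 2.66 ± 0.06 and 1.68 ± 0.05 (edgeR adjusted p = 5.95e-22 and 8e-25), Sparc, a matrix protein that binds PDGF, by 1.89 ± 0.04 in the lingual part (edgeR adjusted p = 5.37e-22) and Plau, the protease that can activate PDGF-D, by 1.36 ± 0.07 in the buccal part (edgeR adjusted p = 3.02e-18). With stage 4 of 8 rose in the undivided mesenchyme (10.3% of all genes), 4 rose and 1 fell in the lingual part (14.2% and 5.78%), and 3 rose in the buccal part (12.0%), with Sparc among them each time at 2.02 ± 0.17, 1.44 ± 0.04 and 0.54 ± 0.03 (edgeR adjusted p = 0.000593, 2.6e-19 and 4.84e-16). Between the sides 4 of 8 were higher in Cap-B than in Cap-L (10.4% of all genes), led by the co-receptor Nrp1 at 1.37 ± 0.06 (edgeR adjusted p = 8.33e-13). At the bell stage 1 of 8 was lower (6.88% of all genes), Plau at -0.71 ± 0.06, and after culture 1 was higher (12.5% of all genes), Nrp1 at 0.56 ± 0.04 (edgeR adjusted p = 1.73e-13 and 2.13e-12).

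Of the 22 neuregulin and ErbB partners, 18 to 20 were tested in each comparison. Between the sides 3 of 18 were higher and 4 lower in Cap-B (10.4% and 7.10% of all genes), 3 of 19 higher and 2 lower in Bell-B (6.00% and 6.88%), and 4 of 20 higher and 7 lower in Cap-B+2D (12.5% each way). Erbb3 and Erbb4 were the most raised in all 3, and the EGFR ligand Tgfa was lower in each, by -0.92 ± 0.22, -0.72 ± 0.12 and -2.39 ± 0.14 (edgeR adjusted p = 0.0023, 7.59e-06 and 1.41e-13). The neuregulin Nrg3 went against Nrg1, lower on the buccal side by -1.43 ± 0.25 at the cap stage and -1.74 ± 0.26 after culture (edgeR adjusted p = 0.000172 and 2.94e-06), though at a level of at most 1.97 CPM in those 4 groups. With culture 6 of 20 rose and 2 fell in the lingual part (19.6% and 15.9% of all genes), and 5 of 19 rose and 1 fell in the buccal part (17.9% and 16.6%). Errfi1, a feedback inhibitor of ErbB receptors, rose by 2.93 ± 0.05 and 2.35 ± 0.04 (edgeR adjusted p = 4.98e-25 and 2.26e-31). Ereg, an EGFR and ERBB4 ligand, had 0 counts in all 3 Cap-B libraries and between 15 and 25 counts in Cap-B+2D. With stage 1 of 18 rose in the undivided mesenchyme (10.3% of all genes), 2 of 20 rose and 3 fell in the lingual part (14.2% and 5.78%), and 3 of 19 rose and 2 fell in the buccal part (12.0% and 6.73%). Several of these counts lie near or under the share of all genes.

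The adaptors and enzymes that these receptors share, such as Grb2, Shc1 and the PI3-kinase subunits, were 15 in number. Between the sides 0 of 15 passed in either uncultured pair, and 1 was lower after culture (12.5% of all genes), the ubiquitin ligase Cblb at -0.53 ± 0.04 (edgeR adjusted p = 2.8e-11). With stage 0 were called in either part, and in the undivided mesenchyme 1 rose and 2 fell (10.3% and 4.21% of all genes). With culture 2 rose and 1 fell in the lingual part (19.6% and 15.9% of all genes) and 3 rose and 2 fell in the buccal part (17.9% and 16.6%), with Pik3r1 up by 0.66 ± 0.04 and 0.69 ± 0.03 and the ubiquitin ligase Cbl down by -0.60 ± 0.07 and -0.72 ± 0.04 (edgeR adjusted p = 2.13e-12, 1.62e-18, 1.72e-08 and 7.81e-18).

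Across the 24 libraries, the genes whose log2 CPM followed each of the 9 most closely were found among 14377 genes by Pearson's r, which describes 8 groups more than 24 independent points. Met was followed most closely by Tead4 (r = 0.978), Sema6b (0.972) and Fbxo17 (0.964), and Nrg1 by Isl1 (0.943), Trim55 (0.938) and Rxfp1 (0.931). Hgf was followed by Sytl4 (0.899), Hhip (0.890) and Scg2 (0.888), and Erbb2 by Plxna1 (0.908), Pacsin1 (0.901) and Plekho1 (0.894). For the PDGF genes the first gene was Zfp706 for Pdgfa (0.860), Emp2 for Pdgfb (0.958), Ppm1l for Pdgfc (0.925), Mbnl2 for Pdgfd (0.921) and Ifnar1 for Pdgfra (0.908). None of the 9 genes was among the 3 closest of another.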

How the data were processed

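Gene expression in dental mesenchyme of ICR mouse embryos was measured by RNA-seq in 24 libraries, grouped by their labels. The authors deposited 1 table of raw counts of read pairs per gene with exon coordinates and the gene length, the latter used here only for levels per kilobase, and 0 of its columns of per-sample values were left unused. Its header names featureCounts 2.0.0 in paired mode on Ensembl release 107 of GRCm39, with no strand option. The labels give Trimmomatic 0.39, Bowtie 1.2.3 and Subread 2.0.3, whereas the paper's methods name a stranded kit and other trimming and alignment tools, so the steps before counting are uncertain. Mapping of reads to several places and overlaps are already settled in the counts.

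Each comparison was fitted in R 4.3.3 with edgeR 4.0.16 (TMM, filterByExpr, quasi-likelihood test) on all genes of its groups, with Benjamini-Hochberg adjustment over all genes tested. The stage and culture comparisons of a side share 1 fit of 9 libraries, and interactions use 12. Depth limits the precision of the lowest genes: Nrg1 had between 25 and 144 counts per library in Cap-W, Cap-L, Bell-W and Bell-L. Floors cover only the counting error, as reads carried no molecular identifiers. All 9 genes passed the filter on low counts in every comparison. The chi-square test found that all pairs of replicates differed beyond sampling noise, so none were merged. The undivided stage comparison, the cap stage side comparison and the stage interaction were tried on simulated counts with 200 changed genes. The other fits were not.

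The 9 genes, the partner lists and the marker lists were chosen with earlier results of these data known. All 9 genes are named in every comparison, of each partner list the counts and up to 2 called genes per direction with the largest fold, and Pdgfrb, Erbb3, Erbb4 and Egfr always. The text leaves out some of these to keep to those that bear on the 9 genes. Likeness was ranked over genes with an average log2 CPM of at least 2. Promoter sequences are not reported here. The alternatives were RLE normalization, library totals alone, DESeq2 1.42.0, no filter, a minimum of 10 counts per library, a single fit of all libraries, a block for the replicate number, the 100 most abundant genes left out, each library left out in turn and, added after the data were seen, both unusual undivided libraries left out together.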

Additional observations from a re-analysis of the deposited data

Results flagged for a closer look

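With stage, 14.5% of all genes tested were called as shifting toward the buccal side and 18.0% toward the lingual side. The difference between the buccal and the lingual part depended on the stage in 6 of the 9 genes by the interaction test in edgeR, given as bell minus cap on the log2 scale. It was -1.60 for Hgf, 0.46 for Met, 0.82 for Pdgfa, 0.35 for Pdgfb, 1.31 for Pdgfc and -0.30 for Pdgfra (edgeR adjusted p = 4.12e-10, 0.000545, 4.46e-10, 0.0101, 4.02e-14 and 0.000389). With all libraries in 1 fit Pdgfb was 0.38 and Pdgfra -0.27, and neither was a call (edgeR adjusted p = 0.198 and 0.234). Hgf and Pdgfc stand out by size, since Hgf was buccal at the cap stage and Pdgfc lingual, and neither was so at the bell stage.

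With culture, 16.0% of all genes tested were called as shifting toward the buccal side and 19.5% toward the lingual side. The difference between the sides depended on culture in 8 of the 9, given as cultured minus uncultured. It was -1.70 for Hgf, 2.00 for Met, -0.36 for Nrg1, 0.63 for Pdgfa, -0.36 for Pdgfb, 1.25 for Pdgfc, -0.35 for Pdgfd and -0.58 for Pdgfra (edgeR adjusted p = 1.06e-09, 3.24e-16, 0.0404, 6.38e-08, 0.00772, 4.7e-14, 0.0124 and 6.89e-09). The call of Nrg1 was lost in 13 of the alternative fits, that of Pdgfd in 2 and that of Pdgfb in 1. The muscle marker sum rose from between 189 and 208 CPM in Cap-B to between 3564 and 3786 CPM in Cap-B+2D, and its part in the culture interactions was not tested.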

How the results depend on the processing

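Of the alternative values of single genes, 1321 kept their direction and their side of the limits, 31 lost a call, 10 gained one and 15 turned sign, and the last were all of genes that were not called. Of the alternative counts of genes called among the 9, 151 stayed within 1.5 times and 2 did not: with library totals alone, 3 of the 9 rose with culture in the lingual part (5 otherwise, Pdgfb and Pdgfd lost), where this scaling moved the median of all genes to -0.18 from -0.03 (to -0.10 from -0.02 in the buccal part), and with all libraries in 1 fit, 5 changed in the culture interaction (8 otherwise, Nrg1, Pdgfb and Pdgfd lost). Values that turned sign were Pdgfra from cap to bell in the undivided mesenchyme, -0.13, which was 0.0727 without both unusual libraries and ranged from -0.26 to 0.0149 with each library left out, Pdgfb between the sides at the cap stage, -0.01, which was 0.00445 with at least 10 counts and from -0.0323 to 0.0134 with each library left out, and Pdgfra between the sides at the bell stage, 0.00813 with library totals. With culture in the lingual part they were Met, 0.01, which was -0.14 with library totals, -0.000701 with all libraries in 1 fit and from -0.0564 to 0.0697 with each library left out, and, with library totals, Erbb2 at -0.0127 and Pdgfa at -0.0485. Erbb2 in the culture interaction was 0.0262 with library totals. The count over all genes in the undivided mesenchyme, 3037, was 5887 with all libraries in 1 fit, 1758 without replicate 3 of Cap-W, 1832 without replicate 2 of Bell-W and at most 3057 with any library left out. All libraries in 1 fit called 2581 genes in the stage interaction and 4048 in the culture interaction, against 7137 and 7842. In the stage interaction of that fit Pdgfb and Pdgfra lost their calls. The causes of these shifts were not tested.

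Whether equal replicate numbers pair the libraries could not be decided from correlations over 3 libraries per group. Same-numbered libraries of the groups compared deviated together with a mean correlation between -0.04 and 0.08, and the number of the 6 libraries that lay closest to their own number was 6 in the undivided stage comparison and in the buccal stage comparison and 0 to 4 in the other 6. With a replicate block in the fit, the calls among the 9 genes were 4 in the undivided comparison, 3, 3 and 4 between the sides, 6 and 5 with stage, 5 and 6 with culture, and 6 and 8 in the interactions, all as without it, and 2791 genes in all were called in the undivided comparison.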

Other observations

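The undivided mesenchyme did not always lie between its 2 parts. At the cap stage the Cap-W mean was between the Cap-L and Cap-B means for 4 of the 9 genes, above both for 2 and below both for 3. At the bell stage the Bell-W mean was between for 3, above for 1 and below for 5. Every undivided library lay outside all 6 libraries of the parts for Met, Pdgfb, Pdgfc and Pdgfra at the cap stage and for Met, Nrg1 and Pdgfd at the bell stage. Pdgfra in Cap-W was 470.5, 445 and 409 CPM, above the highest part library at 376 CPM, and Pdgfd in Bell-W was 11.9, 10.6 and 6.56 CPM, below the lowest at 12.4 CPM. The osteoblast marker sum in Cap-W, 319.6 to 409 CPM, lay below that in Cap-L, 969 to 991 CPM, and in Cap-B, 453 to 469.5 CPM, whereas the Bell-W mean of 638 CPM lay between those of Bell-B, 564 CPM, and Bell-L, 744 CPM. How far the dissected tissue differed between the undivided and the divided preparations was not tested.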
